A study of Mus musculus with 8 samples.

Results

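Nup62cl, Nnat, Rnase2a, Crygn, Ctnnd2, Fam171b and Mettl21e are 7 genes of 18820 with a named probe set that were measured higher in lungs over-expressing p52. They were chosen because their values were higher in CCSP-p52 lungs than in wild-type (WT) lungs when lungs with and without lipopolysaccharide (LPS) were modelled together. That difference is therefore described here without a test. Each gene had 1 probe set, and all 7 are accounted for in what follows. The label given to the group, higher with p52 both with and without LPS, held for 4 of the 7 genes: in each LPS state the lower CCSP-p52 pool of Nup62cl, Nnat, Rnase2a and Crygn exceeded the higher WT pool. The pools of Ctnnd2 and Mettl21e overlapped after LPS, and those of Fam171b overlapped without LPS.

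Whole lung RNA was hybridized to 8 Affymetrix Mouse Gene ST arrays, each carrying the pooled RNA of 3 mice, with 2 pools in each of 4 groups. CCSP-p52 dox and WT dox were FVB mice 8 to 12 weeks old that drank doxycycline (dox) at 2 g/L with 2% sucrose for 1 week. CCSP-p52 LPS and WT LPS were given the same dox and in addition intratracheal LPS 48 hours before sacrifice. CCSP-p52 mice carry CCSP-rtTA, which the Clara cell secretory protein promoter drives in airway epithelium, together with a dox-responsive FLAG-p52 transgene and the silencer CCSP-tTS, and came from more than 1 founder line. WT mice were genotype-negative littermates on the same dox, which all groups therefore shared. One parent was homozygous for CCSP-rtTA, and the sources used here do not say which transgenes the WT littermates carried. Sexes were evenly mixed in each group by the labels. In whole lung RNA a change in the number of cells of a type and a change in RNA per cell cannot be told apart. All p-values here measure the spread between these pools of mice.

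p52 is the processed form of p100, the product of Nfkb2, and works in the non-canonical arm of NF-κB, in which p100 is cleaved and p52, often paired with RelB, binds DNA in the nucleus. LPS, from the outer membrane of Gram-negative bacteria, activates mainly the canonical arm and draws neutrophils into the airspaces. The 7 genes belong to no common pathway. Nup62cl encodes a relative of the nuclear pore protein NUP62, Nnat an imprinted membrane proteolipid, Rnase2a a secreted ribonuclease of the eosinophil-associated family, Crygn a member of the βγ-crystallins, Ctnnd2 the cadherin-binding δ-catenin, Fam171b a transmembrane protein and Mettl21e a protein methyltransferase of muscle.

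Nfkb2, the gene that encodes p52, had log2 values of 10.20 and 10.33 in CCSP-p52 dox pools and 9.51 and 9.58 in WT dox pools. After LPS they were 11.28 and 10.53 in CCSP-p52 pools and 10.83 and 10.56 in WT pools, which overlapped. Nfkb2 also rose with LPS, by 0.89 ± 0.18 in the additive model. Whether its probe set reads the transgene, the mouse's own gene or both was not tested. Array medians lay between 7.48 and 7.54. Scgb1a1, the gene of CCSP and a marker of the labelled tissue, was between 13.26 and 13.77 on every array. WT LPS pool 2 stood apart: the squamous keratin Krt4 was at 12.60 there and at 5.61 to 5.98 on the other arrays, and the skeletal muscle actin Acta1 at 11.97 against 8.06 to 8.73. The 2 CCSP-p52 LPS pools correlated least with each other (r = 0.981, against 0.987 to 0.994 in the other groups). The mean of 12 lung epithelium markers was 11.42 in CCSP-p52 LPS pool 1 and 12.10 in pool 2, and 11.56 and 11.84 in WT LPS pools.

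The sequences before the transcription start are shown for the 4 genes that were separated in both LPS states, because p52 is a DNA-binding factor. They are the 250 bases upstream of each start in the RefSeq table (GRCm38.p6, a C57BL/6J genome, whereas the mice were FVB), written 5′ to 3′ on the strand of the gene. Capitals mark matches on either strand to a loose NF-κB motif, GGGA followed after any 4 bases by CC, which on the other strand is GG followed after any 4 bases by TCCC. The windows are chrX:140062569-140062818 (minus strand), chr2:157559828-157560077 (plus strand), chr14:51256113-51256362 (minus strand) and chr5:24757849-24758098 (minus strand), in the order of the lines.
Nup62cl: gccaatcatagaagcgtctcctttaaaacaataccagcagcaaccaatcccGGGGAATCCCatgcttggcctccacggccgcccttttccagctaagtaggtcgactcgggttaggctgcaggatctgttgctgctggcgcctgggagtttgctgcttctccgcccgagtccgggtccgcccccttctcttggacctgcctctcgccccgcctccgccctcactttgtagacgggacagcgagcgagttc
Nnat: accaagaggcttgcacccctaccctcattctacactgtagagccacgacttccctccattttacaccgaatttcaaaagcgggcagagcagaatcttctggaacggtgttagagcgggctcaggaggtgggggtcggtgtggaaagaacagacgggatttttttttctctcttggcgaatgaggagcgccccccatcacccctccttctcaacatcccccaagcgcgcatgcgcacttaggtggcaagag
Rnase2a: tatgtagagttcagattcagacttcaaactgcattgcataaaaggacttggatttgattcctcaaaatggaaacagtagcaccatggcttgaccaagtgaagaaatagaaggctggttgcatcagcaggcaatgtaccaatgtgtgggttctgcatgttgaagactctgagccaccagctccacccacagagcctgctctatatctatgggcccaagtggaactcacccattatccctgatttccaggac
Crygn: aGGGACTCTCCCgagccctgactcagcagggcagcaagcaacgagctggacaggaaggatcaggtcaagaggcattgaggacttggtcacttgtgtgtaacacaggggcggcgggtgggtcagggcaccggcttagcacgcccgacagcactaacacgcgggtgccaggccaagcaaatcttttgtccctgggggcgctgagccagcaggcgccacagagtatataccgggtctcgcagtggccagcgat
In the window of Nup62cl the motif occurred once, beginning 199 bases before the start, as GGGGAATCCC. Crygn had 2 overlapping matches at the far end of its window, beginning 249 and 248 bases before the start. Nnat and Rnase2a had none, and Ctnnd2, the remaining gene with an entry (chr15:30172284-30172533, plus strand), had none either. Of all 32851 promoters of the same length, 17.6% held this motif. The stricter form, GGGA and TTTCC around 1 free base (on the other strand GGAAA and TCCC), was in 0.356% of promoters and in none of the 5 windows, and the TATA box letters TATAAA, in none of the 5 as well, were present in 12.4%. GGGCGG, the GC box, was found 4 times for Nup62cl and 1 time for Crygn and in 32.7% of all promoters, and CCAAT 2 times for Nup62cl and 1 time for Rnase2a and in 33.8%. The CCAAT matches of Nup62cl began 249 and 207 bases before its start and did not overlap the NF-κB match. The Nup62cl window overlaps the span of the gene in the gene table, chrX:140006802-140062707, so it precedes a start inside that span. A match of letters is a description of the sequence and not a binding site.

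Nup62cl was the most clearly separated gene. Its log2 expression was 7.93 and 7.77 in CCSP-p52 dox pools and 6.74 and 6.58 in WT dox pools. After LPS it was 7.40 and 7.76 in CCSP-p52 pools and 6.32 and 6.32 in WT pools. All 4 CCSP-p52 pools thus lay above all 4 WT pools, whichever the LPS state. The difference was 1.19 ± 0.14 on the log2 scale without LPS (standard error, n = 2 pools per group, 2.28-fold) and 1.26 ± 0.14 with LPS (2.39-fold). In the additive model of p52 and LPS over 8 arrays it was 1.22 ± 0.09, or 2.33-fold. The distance between the lowest CCSP-p52 pool and the highest WT pool, taken in the LPS state where it was smaller, was 1.03, which ranked 1 among the 18820 genes. The next in that order were Phlda2, an imprinted gene that limits placental growth, at 0.44, Ptgds, a prostaglandin D synthase, at 0.33, and Gpx2, a glutathione peroxidase, at 0.32.

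Nnat, neuronatin, differed in size between the LPS states. CCSP-p52 dox pools had 9.56 and 9.55 and WT dox pools 9.45 and 8.97, and the gap between the groups was 0.10. After LPS the CCSP-p52 pools had 10.15 and 10.05 and the WT pools 8.81 and 8.22, so the groups were far apart. The difference was 0.34 ± 0.22 without LPS (1.27-fold) and 1.58 ± 0.22 with LPS (3.00-fold). The second exceeded the first by 1.24 ± 0.31. WT dox pool 1 was the WT pool closest to the CCSP-p52 values. The additive value of 0.96 was 1.18 without that pool. It was 0.72 without WT LPS pool 2, the array with high squamous and skeletal muscle markers.

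Rnase2a had 5.51 and 5.82 in CCSP-p52 dox pools and 4.97 and 4.88 in WT dox pools. With LPS it had 6.89 and 6.65 in CCSP-p52 pools and 6.61 and 5.77 in WT pools. Both states were separated, but after LPS by only 0.04, since WT LPS pool 1 came close to the lower CCSP-p52 pool. Its differences were 0.74 ± 0.26 without LPS (1.67-fold) and 0.58 ± 0.26 with LPS (1.49-fold). The additive value of 0.66 was 0.84 without WT LPS pool 1. It was 0.51 without WT LPS pool 2, the array with high squamous and skeletal muscle markers. When each array was centred again on its own median the pools of Rnase2a overlapped, which left 3 genes separated in both states. Its highest group mean, 6.77, was below the median of all probe sets, 7.53, so the gene was measured in the dim part of the array.

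Crygn, γN-crystallin, had the smallest additive difference of the 7, of like size in both LPS states. Values were 7.31 and 7.65 in CCSP-p52 dox pools and 7.00 and 7.11 in WT dox pools. They were 7.77 and 7.45 in CCSP-p52 LPS pools and 7.14 and 7.25 in WT LPS pools. All 4 CCSP-p52 pools lay above all 4 WT pools, and the smaller of the 2 gaps was 0.20, rank 11 of all genes. The difference was 0.42 ± 0.16 without LPS and 0.41 ± 0.16 with LPS. Its additive value of 0.41 (1.33-fold) lay just inside the p52 cut-off of 0.41.

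The remaining 3 genes were separated in 1 LPS state each. Ctnnd2 had 9.37 and 9.31 in CCSP-p52 dox pools and 8.95 and 8.64 in WT dox pools, a difference of 0.55 ± 0.20 (1.46-fold). After LPS the CCSP-p52 pools had 7.75 and 8.36 and the WT pools 7.76 and 7.74, a difference of 0.30 ± 0.20. CCSP-p52 LPS pool 1 was level with WT, and only pool 2 was higher.

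Mettl21e showed the same arrangement. Its values were 7.51 and 7.76 in CCSP-p52 dox pools against 6.84 and 6.75 in WT dox pools. In CCSP-p52 LPS pools they were 5.61 and 7.18 against 5.63 and 5.66 in WT LPS pools, so pool 1 lay with the WT pools and pool 2 far above them. The differences were 0.84 ± 0.44 without LPS and 0.75 ± 0.44 with LPS. Without CCSP-p52 LPS pool 2 the additive value was 0.49, against 0.80 over all arrays. In that pool the lung epithelium markers were also higher than in pool 1, and their part in the values of Ctnnd2 and Mettl21e was not tested.

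Fam171b went the other way. It had 7.23 and 6.79 in CCSP-p52 dox pools and 6.92 and 6.62 in WT dox pools, which overlapped, with a difference of 0.24 ± 0.34. In CCSP-p52 LPS pools it had 7.66 and 8.47 and in WT LPS pools 7.08 and 6.36, which did not overlap, with a difference of 1.34 ± 0.34 (2.53-fold). The second difference was larger by 1.10 ± 0.47. The additive value of 0.79 fell to 0.52 without CCSP-p52 LPS pool 2. It fell to 0.53 without WT LPS pool 2, the array with high squamous and skeletal muscle markers.

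**Figure D1:**
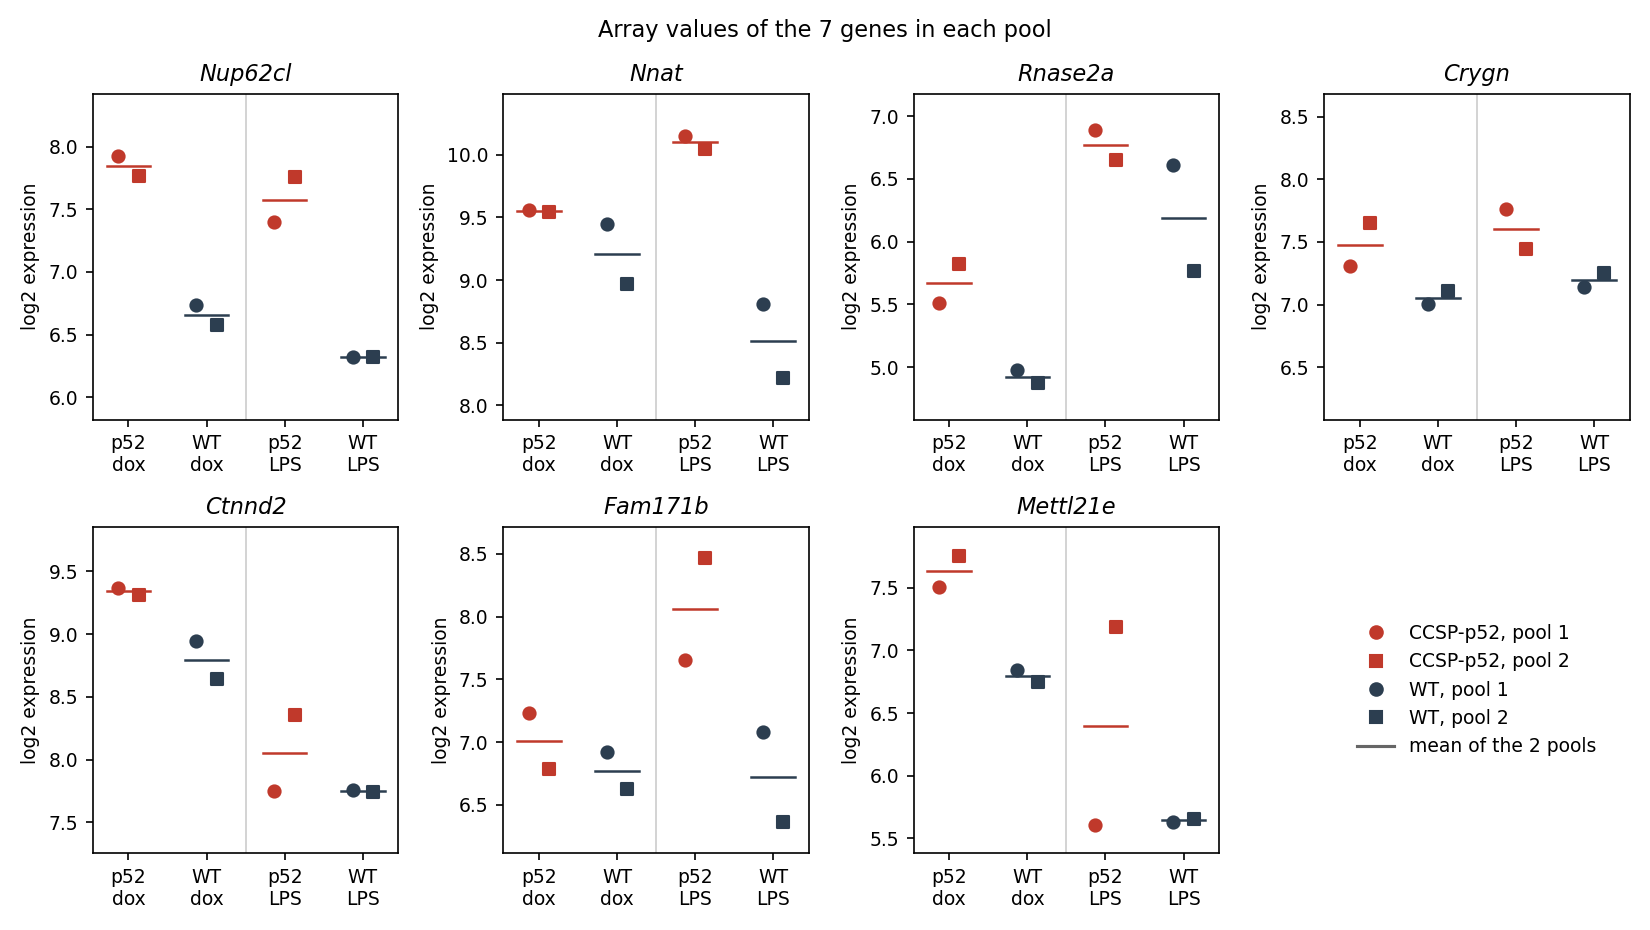
Log2 expression (y axis, each panel spanning the same number of units) of each gene in the 2 pools of each group (x axis), with the group mean as a line. CCSP-p52 LPS pool 1 sits at the WT level for Ctnnd2 (7.75) and Mettl21e (5.61), while for Nup62cl every CCSP-p52 pool is at 7.40 or above and every WT pool at 6.74 or below.

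By count, 6 of the 7 genes had both CCSP-p52 pools above both WT pools without LPS, 5 with LPS and 4 in both states. Over all 18820 genes the shares were 16.5%, 15.3% and 2.27%. In 5 of the 7 the CCSP-p52 pool was above the same-numbered WT pool in 4 of 4 pairs, as in 6.03% of all genes. The p52 cut-off used here takes its log2 fold change of 0.41 from the study's ranking. It is joined with an unadjusted p no higher than 0.05, set here, and both were applied to the additive model. The fold changes the study lists for CRYGN, CTNND2 and RNASE2 equal the differences without LPS here (0.421, 0.547 and 0.742). The additive values of these genes were 0.415, 0.426 and 0.659, so counts at the cut-off used here are not counts at the study's own. All 7 passed the p52 cut-off used here, which 0.26% of genes, 49 in number, passed in the same direction. In the lungs without LPS alone, Nnat (0.34) and Fam171b (0.24) were below 0.41. In the lungs with LPS alone, Ctnnd2 (0.305) and Crygn (0.409) were below it. As the genes were chosen on this contrast, these counts describe the choice and nothing is read from them. The median p52 difference over all probe sets tested was 0.001.

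The response to LPS was not used to choose the genes and could be tested. At a Benjamini-Hochberg adjusted p under 0.05 in the additive limma model, 1 of the 7 rose with LPS and 3 fell, while 13.7% of all genes rose and 21.1% fell. Rnase2a rose by 1.18 ± 0.18 (2.27-fold, adjusted p = 0.0018), by 1.10 ± 0.26 in CCSP-p52 lungs and 1.26 ± 0.26 in WT lungs. In each genotype both LPS pools were above both dox pools.

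Ctnnd2 fell by 1.17 ± 0.14 (2.24-fold, adjusted p = 0.00071), with all 4 LPS pools below all 4 dox pools. Mettl21e fell by 1.19 ± 0.29 (2.28-fold, adjusted p = 0.014). In both genes the LPS pools were below the dox pools of their own genotype without overlap, and the change was measured in CCSP-p52 lungs (−1.29 ± 0.20 for Ctnnd2 and −1.23 ± 0.44 for Mettl21e) and in WT lungs (−1.04 ± 0.20 and −1.15 ± 0.44 for the same genes). Among 12 markers of lung epithelium 7 also fell with LPS and 1 rose, with a median of −0.53, and the part of this in the fall of either gene was not tested.

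Nup62cl fell with LPS by 0.31 ± 0.09 (adjusted p = 0.038). The call was kept without CCSP-p52 dox pool 2 or CCSP-p52 LPS pool 2 and lost when any of the other arrays was left out, with log2 changes of −0.38 to −0.24 and adjusted p from 0.0051 to 0.114. Crygn (0.13 ± 0.10, adjusted p = 0.36) and Fam171b (0.50 ± 0.29, adjusted p = 0.23) did not pass. For Fam171b the LPS change was 1.05 ± 0.34 in CCSP-p52 lungs and −0.05 ± 0.34 in WT lungs.

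Nnat (−0.07 ± 0.26, adjusted p = 0.86) did not pass in the additive model, which averages both genotypes. LPS pools were above dox pools in CCSP-p52 lungs (0.55 ± 0.22) and below them in WT lungs (−0.69 ± 0.22), without overlap in either. This pattern was seen in 209 genes, 1.11% of all.

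**Figure D2:**
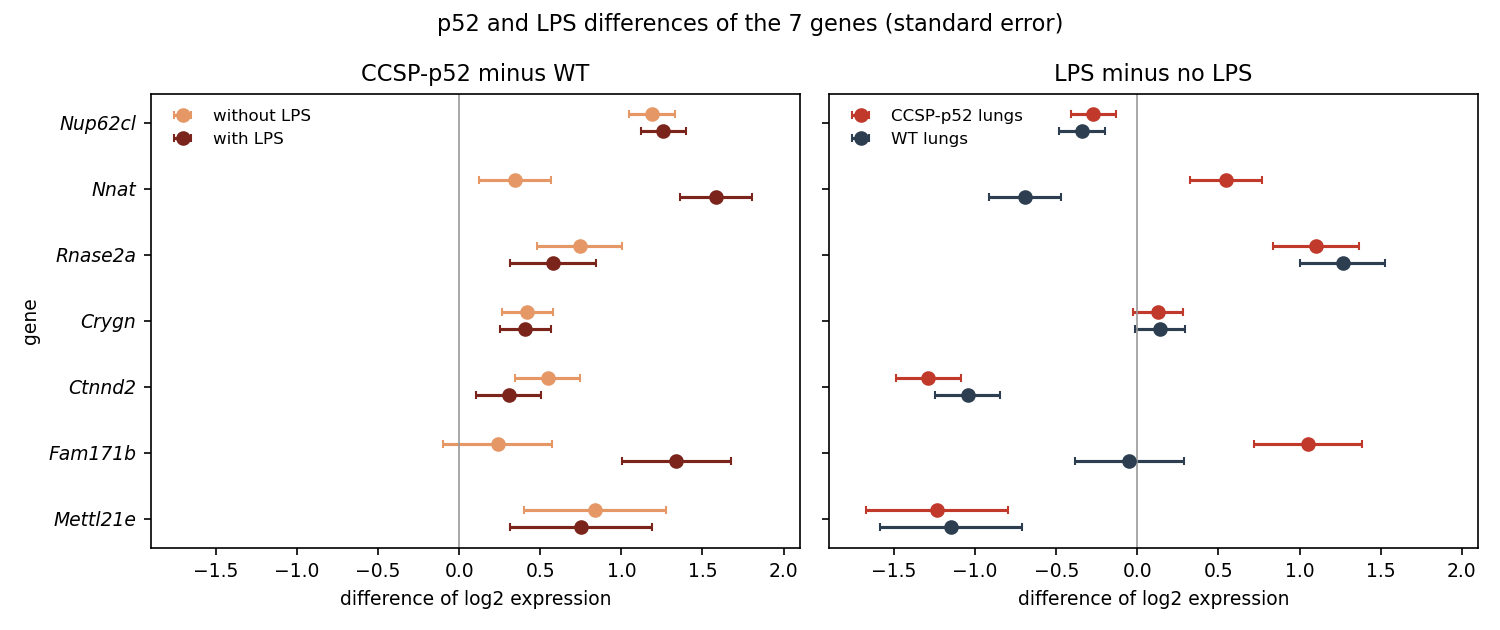
Difference of log2 expression (x axis) for each gene (y axis), CCSP-p52 minus WT by LPS state in the left panel and LPS minus no LPS by genotype in the right panel, with standard errors from the 4-group model. Nnat and Fam171b have the widest distance between the 2 states at left, 1.24 and 1.10, and Nnat has LPS changes of opposite sign at right.

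Markers of the cells known to express some of these genes were read on the same arrays. Rnase2a belongs to a family named for eosinophils, and none of 7 eosinophil markers passed the p52 cut-off or the LPS test. Their mean log2 value was 6.15 and 6.35 in CCSP-p52 dox pools and 6.31 and 6.26 in WT dox pools. After LPS it was 6.26 and 6.32 in CCSP-p52 pools and 6.31 and 6.54 in WT pools, so the genotypes overlapped in both states. The defining granule genes Prg2 and Epx had p52 differences of 0.01 ± 0.11 and −0.07 ± 0.09. Prg2 lay at 5.53 to 5.93 and Epx at 5.77 to 6.14, below the median of all probe sets, 7.53. A change in eosinophils may therefore not be seen in these 2 genes. All 10 neutrophil markers rose with LPS, with a median of 3.70, beside the rise of Rnase2a, while none passed the p52 cut-off.

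Of 8 alveolar macrophage markers measured none passed the p52 cut-off, 2 rose with LPS and 1 fell. Mettl21e is a gene of skeletal muscle, and the mean of 14 skeletal muscle markers was 9.13 in WT LPS pool 2 and 7.06 to 7.58 on the other arrays. Mettl21e was at 5.66 in WT LPS pool 2, next to its 5.63 in WT LPS pool 1. For Ctnnd2 and Nnat, both known from neurons, none of 9 neuroendocrine and neuronal markers passed the p52 cut-off (median −0.02) and 1 fell with LPS. Nup62cl is on chromosome X, and none of 4 sex-linked genes passed the p52 cut-off, with additive differences from −0.07 to 0.13. By state, Xist differed by −0.12 without LPS and 0.39 with LPS. After LPS it was at 11.16 and 11.29 in CCSP-p52 pools and 10.74 and 10.92 in WT pools, without overlap. The Y-linked Eif2s3y, Kdm5d and Uty differed by −0.09, 0.07 and −0.08 with LPS. The part of sex in the values of Nup62cl was not tested.

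In the families of the 7 genes, 2 other genes passed the p52 cut-off, the imprinted Phlda2 as higher and the calcium pump regulator Sln as lower. Beside Nup62cl, 6 other genes from a list of the NUP62 subcomplex and nucleoporins with FG repeats were measured, with p52 differences of −0.01 to 0.07. None passed the p52 cut-off or the LPS test. Among 15 scaffold nucleoporins, which build the ring of the pore, none passed the p52 cut-off, 4 rose with LPS and 2 fell. Nup210 of the pore membrane fell by 0.52 ± 0.09 (adjusted p = 0.0042) and Ndc1 rose by 0.43 ± 0.10 (adjusted p = 0.010).

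Nnat is expressed from the paternal allele. Of 26 other imprinted genes, Phlda2 alone passed the p52 cut-off, with 0.58 ± 0.08. It had 8.25 and 8.20 in CCSP-p52 dox pools against 7.76 and 7.73 in WT dox pools, and 8.09 and 8.32 in CCSP-p52 LPS pools against 7.45 and 7.58 in WT LPS pools. With LPS 11 of the 26 fell, among them Mest (−1.33 ± 0.11, adjusted p = 0.00016) and Ddc (−0.77 ± 0.08), and 2 rose. Nnat resembles phospholamban and sarcolipin, small membrane proteins that restrain the calcium pump of the endoplasmic reticulum. Among these and the pumps, 5 genes in all, the sarcolipin gene Sln passed the p52 cut-off as lower (−0.51 ± 0.20). Sln had 6.88 and 7.14 in CCSP-p52 dox pools and 7.08 and 7.28 in WT dox pools, which overlapped, and 6.33 and 6.55 in CCSP-p52 LPS pools and 6.90 and 7.66 in WT LPS pools, which did not. Its highest value was in WT LPS pool 2, the array with high skeletal muscle markers. Over all genes 0.0478% passed as lower. The phospholamban gene Pln (−1.53 ± 0.47) and the pump gene Atp2a3 (−1.48 ± 0.30) fell with LPS. Of 10 markers of cardiac and pulmonary vein muscle, a list that also holds Sln, 6 fell with LPS (median −1.08) and 2 passed the p52 cut-off as lower. Their mean was 8.44 and 8.87 in CCSP-p52 LPS pools and 8.06 and 9.50 in WT LPS pools, against 9.40 and 9.77 in CCSP-p52 dox pools and at least 9.73 in both WT dox pools, and their part in the values of Sln and Pln was not tested.

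For Rnase2a, 13 other genes of the RNase A family were measured and none passed the p52 cut-off. Rnase2b, its closest namesake, had a p52 difference of −0.13 ± 0.10. With LPS Rnase2b rose by 0.39 ± 0.10 (adjusted p = 0.015) and Ear14 by 0.57 ± 0.10 (adjusted p = 0.0032), while Rnase1, a pancreatic-type ribonuclease, fell by 0.91 ± 0.07 (adjusted p = 0.00017). Rnase2a, Rnase2b and the Ear genes resemble one another closely, and how far the probes of 1 of them also read another was not tested.

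None of 14 other crystallins passed the p52 cut-off, and Crybg1, Cryga and Crygc rose with LPS, by 1.16 ± 0.21, 0.35 ± 0.08 and 0.37 ± 0.12. Ctnnd2 differed from the other 15 genes of the p120 catenin family and their cadherin partners in its p52 difference only by description, since none of them passed that cut-off. With LPS 10 of these 15 fell, with a median of −0.51. They included Arvcf (−0.72 ± 0.10), Jup, the plakoglobin of desmosomes (−0.68 ± 0.10), and Ctnnd1, the p120 catenin itself (−0.63 ± 0.13). Cdh1, epithelial cadherin, did not pass (0.10 ± 0.08).

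The other FAM171 genes, Fam171a1 and Fam171a2, had p52 differences of −0.01 ± 0.13 and −0.005 ± 0.10 and fell with LPS, by 0.90 ± 0.13 and 0.39 ± 0.10, while the LPS change of Fam171b, 0.50 ± 0.29, did not pass. Of 7 methyltransferases related to Mettl21e none passed the p52 cut-off. Vcpkmt, which methylates the chaperone VCP, rose with LPS by 0.39 ± 0.11 (adjusted p = 0.023). Mettl21c, which lies 161450 bases from Mettl21e and is like it a muscle enzyme, had a p52 difference of 0.06 ± 0.11.

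**Figure D3:**
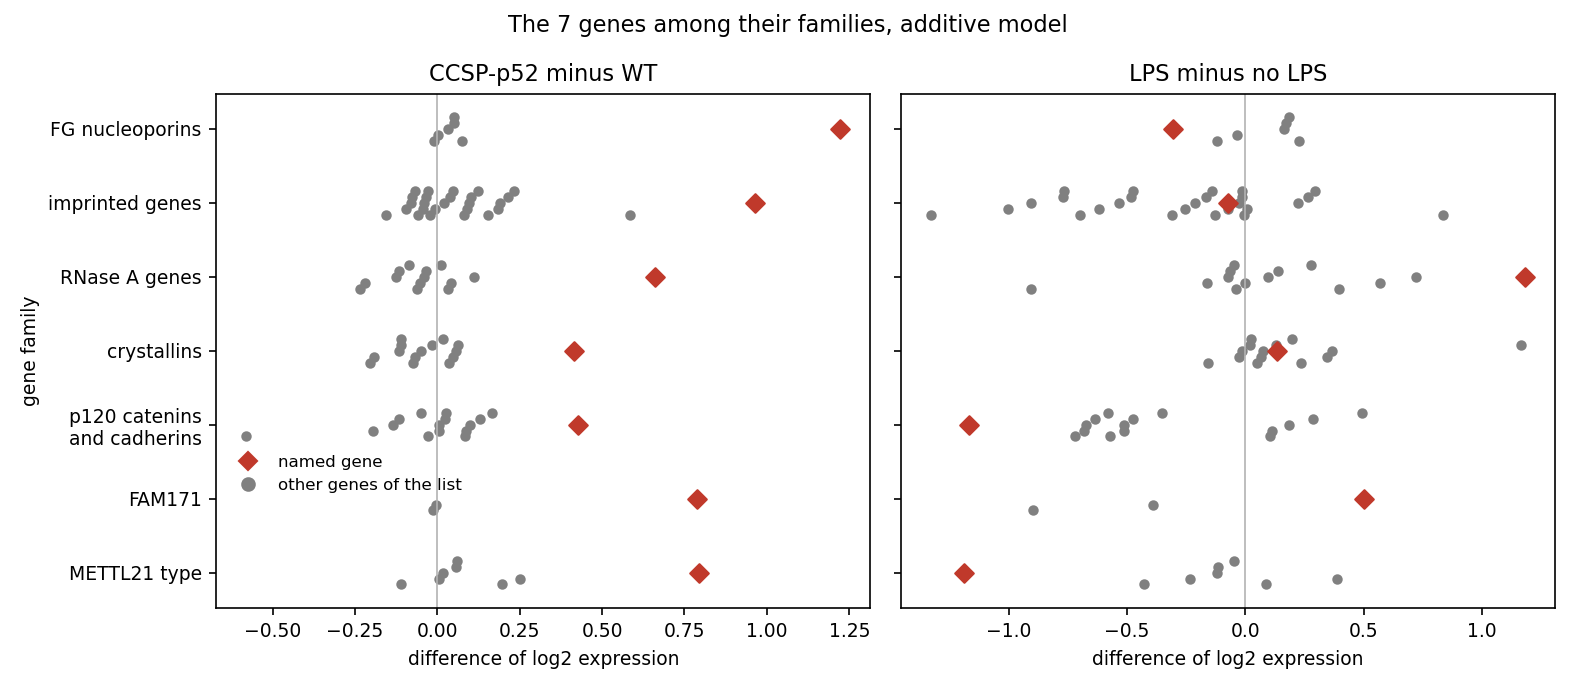
Differences of log2 expression in the additive model (x axis) for the 7 genes (diamonds) and the other measured genes of their families (points, one row per family), for p52 at left and LPS at right. At left the 7 genes were chosen for being high, and of the other points 1 lies to the right of 0.41, the imprinted gene Phlda2 at 0.58. At right Ctnnd2 lies with a family of which 10 of 15 other genes fell.

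The genes flanking each of the 7 on its chromosome were read for a difference shared along the region. Of 70 neighbours, 5 on each side, none passed the p52 cut-off, against 0.26% of all genes as higher. Their p52 differences ran from −0.23 to 0.34 with a median of 0.02. The highest was Tsc22d3, a glucocorticoid-induced gene near Nup62cl, and Rnase6 near Rnase2a was the lowest. At an unadjusted p of 0.05, 2 of the 70 neighbours passed, Rnase1 (−0.22 ± 0.07) and Tex30 (0.19 ± 0.07). The share of all genes at that p was not taken, so nothing is read from this count.

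Nnat (chr2:157560078-157562525) lies within the span of Blcap (chr2:157556362-157566361), which is imprinted with it. Blcap had a p52 difference of −0.01 ± 0.08 and rose with LPS by 0.29 ± 0.08 (adjusted p = 0.027). The 10 neighbours of Fam171b (chr2:83812563-83883534) lay between −0.10 and 0.19. Among them Zc3h15, Itgav, Zswim2 and Calcrl were between −0.03 and 0.02. Rnase2a (chr14:51255261-51256112) lies among its own family. Ctnnd2 (chr15:30172534-31029344), Crygn (chr5:24751002-24757848) and Mettl21e (chr1:44204070-44218931) had neighbours between −0.20 and 0.19.

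**Figure D4:**
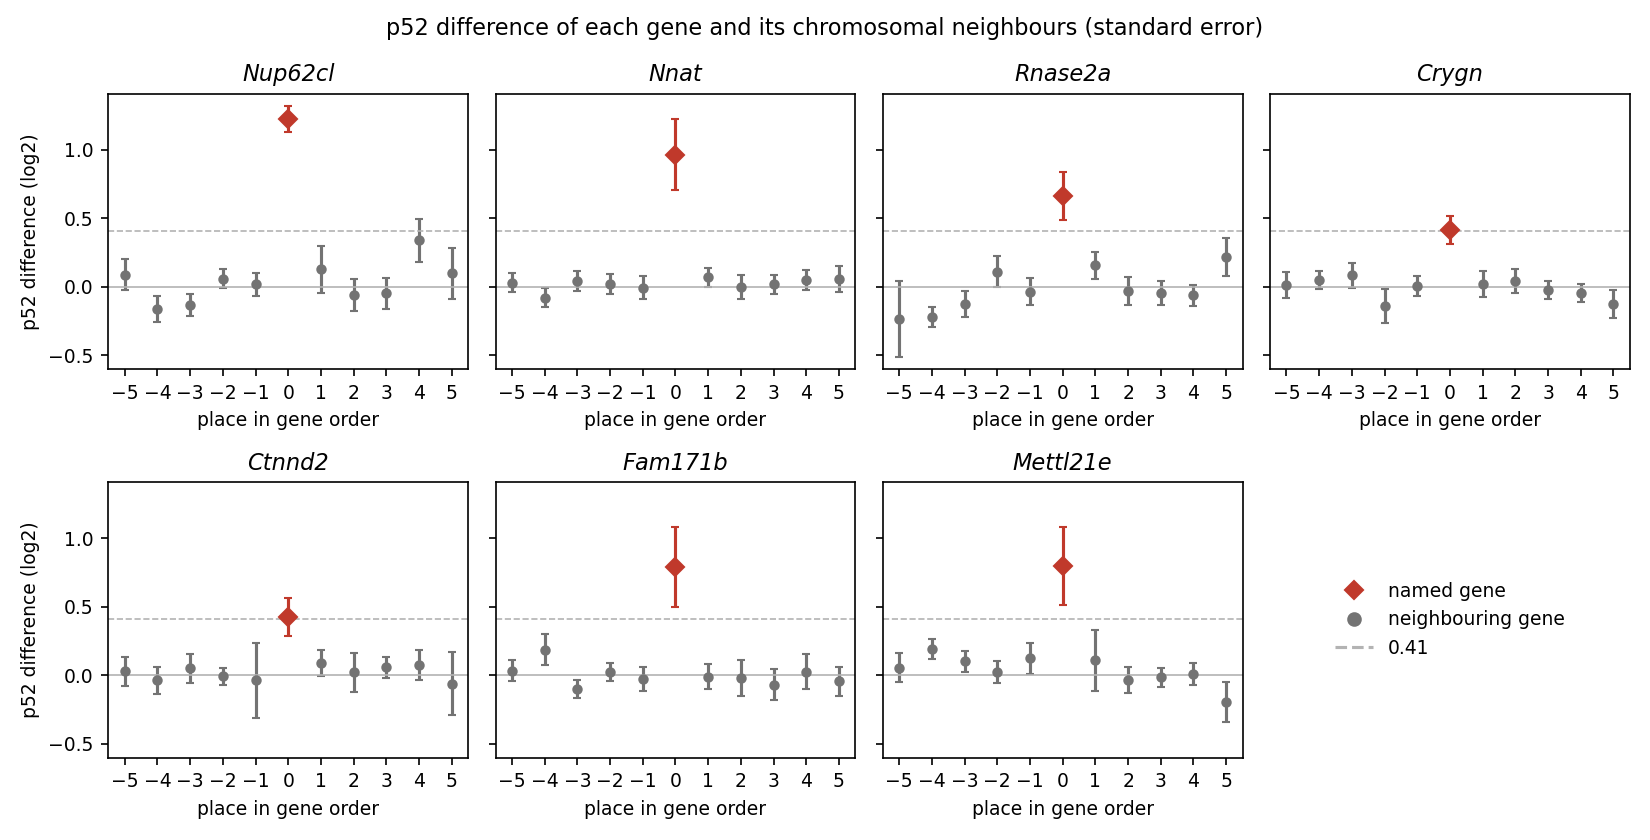
p52 difference of log2 expression in the additive model (y axis, with standard error) for each gene and its 5 measured neighbours on either side (x axis, place in gene order). Every neighbour lies below the dashed line at 0.41, the highest being Tsc22d3 at 0.34 beside Nup62cl.

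Across the 8 arrays the 7 genes did not share 1 pattern. Pearson correlations between pairs of them ran from −0.60 for Rnase2a and Ctnnd2 to 0.93 for Ctnnd2 and Mettl21e, both lower after LPS and both level with WT in CCSP-p52 LPS pool 1. Nup62cl and Nnat correlated at 0.80 and Nnat and Fam171b at 0.79. These values are descriptions over 8 arrays that share their groups and their normalization.

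The genes most like each one were taken from 7727 with a standard deviation over the arrays of at least 0.2. For Nup62cl they were Phlda2 (r = 0.98), the vesicular monoamine transporter gene Slc18a1 (0.95) and Nexmif (0.94), with p52 differences of 0.58, 0.50 and 0.56. For Crygn the first was Cldn7, a tight junction claudin of epithelia (0.93), followed by Atf7ip2 and Olfr43. Nnat came with AI429214 (0.94), Clec4b1 and Fndc7.

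Rnase2a was followed by the amino acid transporter gene Slc6a20a (0.97), the lysophosphatidic acid receptor gene Lpar1 and B3gnt2, with LPS differences of 1.19, 0.51 and 0.32. Ctnnd2 was followed by Pik3c2g, Tmem132c and the collagen VI gene Col6a1 (each 0.99), with LPS differences of −0.75, −1.09 and −0.55. Mettl21e came with Cdk18 (0.99), the helix-loop-helix inhibitor Id1 and Tulp4, with LPS differences of −0.31, −0.33 and −0.36, of which that of Tulp4 passed the LPS test. Fam171b came with Flrt2 (0.96), the tryptophan dioxygenase gene Tdo2 and the retinoic acid synthesis gene Aldh1a2, with p52 differences of 0.31, 0.60 and 0.39 and LPS differences that did not pass.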

How the data were processed

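The authors hybridized pooled whole lung RNA of 3 mice per array to Affymetrix Mouse Gene ST arrays and deposited log2 values that the oligo package had normalized by Robust Multichip Average. This brings all arrays to a common scale, with medians of 7.48 to 7.54, so a difference in total RNA between lungs cannot be seen. The submitters' processing notes name limma 3.20.8. Scanner files were not used here. Of 35556 probe sets, 21218 carried 1 gene symbol in the platform's probe table, 1881 several and 12457 none, and those with 1 symbol were tested. Whether that table is of the same array version as the samples was not settled. Linear models were fitted with limma 3.58.1 in R 4.3.3, with Benjamini-Hochberg adjustment over the 21218 probe sets. They were an additive model of p52 and LPS over 8 arrays and a 4-group model for each state. The study's methods describe a linear model with both factors and do not say whether it was additive. For a gene with several probe sets the value of the brightest is given, and a call on any counts. The steps were tested on simulated arrays. The 7 genes, the family and marker lists and the tests were chosen with earlier results of these data known, and the sex-linked genes after the values were seen. Named beside the 7 genes are, by rule, the 3 genes most like each over the arrays, up to 5 neighbours on each side in RefSeq order, Nfkb2, up to 4 genes per family by p, and 2 markers per list by level. Ptgds and Gpx2 (largest gaps), Blcap, Cdh1, Ctnnd1, Mettl21c, the Fam171 genes, Prg2, Epx, Krt4 and Acta1 were added for their place or role after their values were seen. Several Ear genes and Nup62 had no probe set with 1 symbol and were not analysed here. Pools with the same number deviated together from the means of their groups (r = 0.14 to 0.35 in 6 pairs of conditions), so the replicate number was taken to pair the pools, which rests on the values alone. Alternatives were other probe sets, models, moderation, array weights, centring, normalization, the replicate block, thresholds, 1 genotype or LPS state alone, and arrays left out. Having 8 arrays limits precision, with median standard errors of 0.09 (additive) and 0.13 (1 state).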

Additional observations from a re-analysis of the deposited data

Results flagged for a closer look

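The LPS change of Nnat had opposite signs in the genotypes: it was 0.55 in CCSP-p52 lungs, where both LPS pools lay above both dox pools, and −0.69 in WT lungs, where both LPS pools lay below both dox pools. No test of the difference between the genotypes is given here.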

How the results depend on the processing

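The p52 difference of each of the 7 genes kept its sign under every alternative run. This is a description, since the same arrays were used to choose the genes for a high difference. The p52 difference changed in size: without both second LPS pools Fam171b was 0.35 (0.79 over all arrays) and Nnat 0.68 (0.96), and with array weights Nnat was 0.57. When 1 array was left out it was 1.14 to 1.29 for Nup62cl, 0.72 to 1.18 for Nnat, 0.51 to 0.84 for Rnase2a, 0.35 to 0.48 for Crygn, 0.33 to 0.57 for Ctnnd2, 0.52 to 0.99 for Fam171b and 0.49 to 1.12 for Mettl21e. The LPS change of Nnat, −0.07 over all arrays, was positive in CCSP-p52 arrays alone (0.55), without both second LPS pools (0.10), without WT LPS pool 2 (0.17) and without WT dox pool 1 (0.15), and ran from −0.22 to 0.17 with 1 array left out. That of Fam171b, 0.50, was 0.23 to 0.76 with 1 array left out (that of Crygn, 0.13, was 0.067 to 0.20), was −0.049 in WT arrays alone and passed the LPS test without both second LPS pools (0.48, adjusted p = 0.039). The LPS call of Nup62cl was also lost over all probe sets (adjusted p = 0.058), in the 4-group model (adjusted p = 0.055) and in either genotype alone, and that of Mettl21e in CCSP-p52 arrays alone (adjusted p = 0.12) and WT arrays alone (adjusted p = 0.10). The genes separated in both LPS states were 3 to 5 with all arrays and 4 to 6 with 1 array left out. Leaving out an array can only keep or raise this count, so its lower end was fixed in advance. The genes changed by LPS were 3 to 5. The 49 genes at the cut-off as higher became 105 with array weights, 77 without both second LPS pools, 26 without dim probe sets, 20 at an unadjusted p of at most 0.01, and 43 to 124 with 1 array left out (CCSP-p52 LPS pool 1 for 124, with 86 when pool 2 of that group was left out), and the cause was not tested. With the replicate block the count was 52, and the block changed no call of the 7 genes.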
